A study of Mus musculus with 6 samples.

Results

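The interferon-stimulated genes described here are 41 genes whose transcripts rise in cells that receive an interferon signal. They were taken by name, and every probe that carries one of their names was used. The rule of the list uses no measured value, but the list was chosen with earlier results of these data known. Of the 41 genes, 38 had at least 1 named probe, out of 23462 named genes on the array, and these 38 genes had 55 probes. No probe was named for Mx1, Mx2 or Oas1b. The measure was the difference in colon between mice labelled Islr knockout and mice labelled control. Islr is the gene of a secreted protein made by stromal cells.

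Colon RNA from 6 male mice, 3 labelled control and 3 labelled Islr knockout, was hybridised to 1 single-colour Agilent array each. According to the sample source, mice of both groups drank 3.5% dextran sulfate sodium (DSS), which injures the colonic epithelium, for 5 days and then recovered for 1 day, whereas the treatment field of the same labels says that none was given. No strain, age, littermate status, or promoter or Cre line behind the knockout was given in the sources used here, so whether Islr was deleted in all cells or in some is not known here. The design text speaks of flow separation without naming a cell population. Most listed markers of epithelium, smooth muscle, endothelium, fibroblasts and leukocytes were well above background on all 6 arrays, so the samples held mixed colon tissue (Ngp was so on no array, and Mmp9 and Xcr1 on some); fewer cells of a type and less RNA per cell cannot be told apart in such samples. Nothing in the labels ties the arrays to pairs or litters, and p-values measure the spread between these 6 arrays.

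Interferons reach cells through surface receptors that activate JAK kinases. Type I and type III interferons then assemble a complex that contains STAT2 and IRF9, which binds the interferon-stimulated response element (ISRE) and switches on antiviral genes, while type II interferon (interferon gamma) acts at the gamma-activated site (GAS). In the gut, type III interferon signals mainly to the epithelium, and interferon gamma from lymphocytes raises immunity-related GTPases, guanylate-binding proteins, chemokines and the machinery of antigen presentation.

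Levels below are log2 processed signals from which each array's own 75th percentile was subtracted, so 0 is that percentile, and differences are knockout minus control on that scale. Testing required a probe to be well above background throughout 1 group or both and to keep 2 or more usable values in each, and a probe was called at a 5% false discovery rate (limma, Benjamini-Hochberg over 35351 probes). The tested probe with the highest mean stands for a gene unless another is named. Spots that the scanner software marked as outliers were treated as missing, and they were not spread evenly: 16.0% of spots on knockout replicate 1 and 13.6% on control replicate 1, against 3.26% to 9.05% on the other 4 arrays, and 25 and 17 of the 55 member probes on those 2 arrays. Knockout replicate 1 also had the lowest 75th percentile, 4910.5 intensity units against 5774 to 7110.5 on the others. A position digit in the names of the scanner files, read here as slide row, was 1 for all controls and 2 for all knockouts. Slide row, if so read, and genotype cannot be told apart. The genotype labels were checked with Islr itself, which fell by 2.44 (SE 0.21, adjusted p = 0.0171 in limma, 2 usable controls against 3 knockouts). The adjusted p was 0.0580 without knockout replicate 3, with a difference of -2.39. The Islr probe was still well above background on all 3 knockout arrays, at a mean of -1.21.

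Nearly all measured interferon-stimulated genes had higher levels in the knockout colons, and the called ones were 4 antiviral effectors and 1 transcription factor. Of 33 members with a tested probe, 32 were higher and 1, Gbp5, was lower. Their median difference was 0.63, against 0.01 over all 16451 named genes tested and 0.08 over the 6297 named genes above the 75th percentile. In 22 of the 33 all usable knockout values lay above all usable control values, against 20.3% of all named genes, and in 1 of 33 they lay below, against 20.7%. An unadjusted p under 0.05 with a higher level was found for 20 of 33 members, against 13.7% of all named genes.

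The false discovery threshold was passed by 5 genes, all of them higher: Oas2, Oas3, Irf7, Rsad2 and Zbp1, against 1.81% of all named genes with a called probe that was higher. They had 6 called probes among the 45 member probes tested, against 3.97% of all probes called in either direction and 1.55% called and higher. Of these 6, the dimmer Oas2 probe was well above background on no control array, so it met the background rule only through the knockouts. By the brightest probe alone, only Oas2 and Oas3 of the 33 members were called. On that basis 222 of 16451 named genes were called and higher, and 406 called and lower. The count by brightest probe depended on single arrays: it was 6 when control replicate 1 was left out, 0 for control replicate 2 and for knockout replicate 3, and 1 for each of the remaining arrays. The members' median was 0.54 to 0.76 in those 6 fits. With no filter on dim probes, which raised the number of probes tested to 51784, Oas2 was still called and the other 4 genes were not (adjusted p = 0.0559 to 0.0733).

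**Figure D1:**
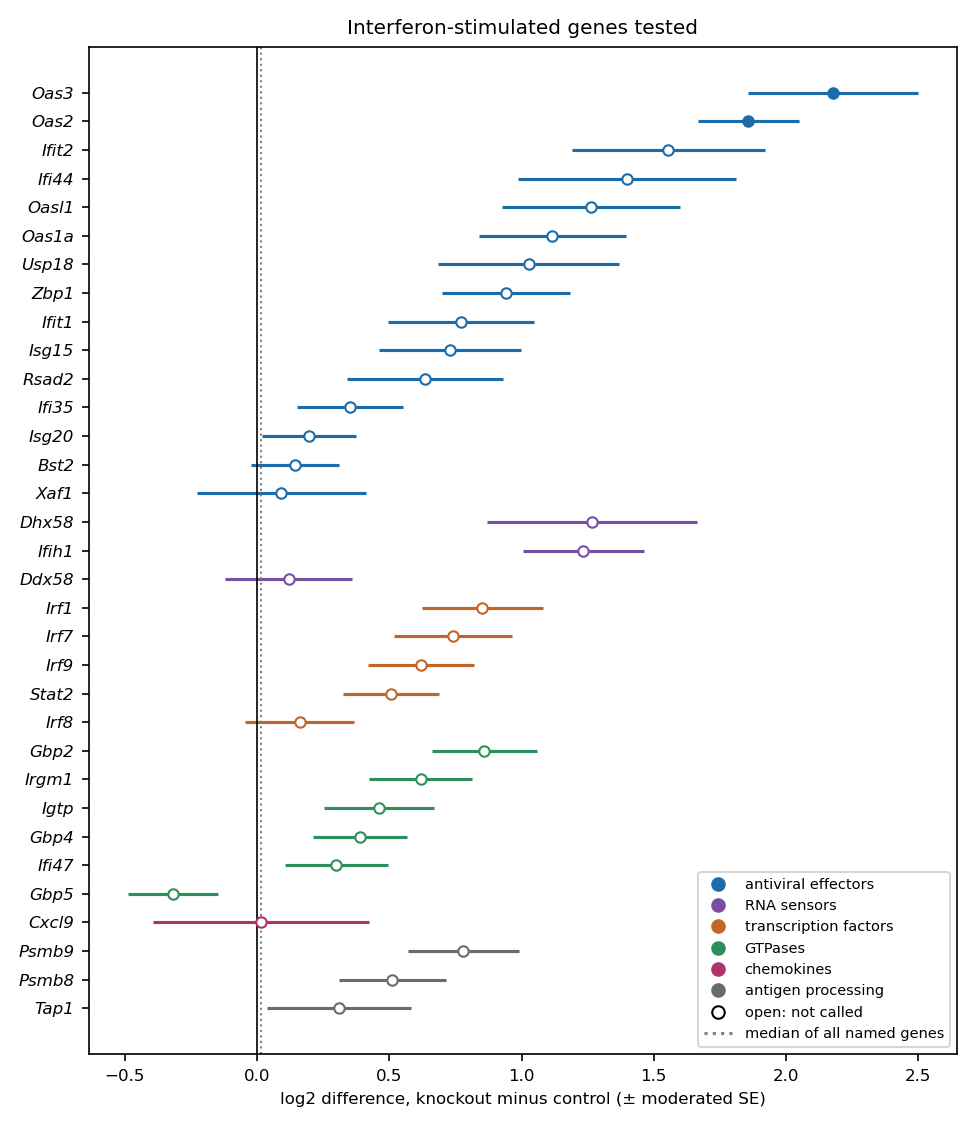
Knockout minus control difference (log2) of the brightest tested probe of each of the 33 tested members, grouped by role, with bars of 1 moderated standard error from limma either side. Filled points passed the 5% false discovery rate; 32 of 33 points lie above 0, and Gbp5, at -0.32, lies below it.

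With outlier spots kept, so that each of the 38 members with a probe had 6 values, knockout replicate 1 had the highest value of all arrays for 33 of 38 members, and knockout replicate 3 was the lowest knockout for 26 of 38. Over the 20 members with no missing array, the median deviation from a gene's control mean was 1.01, 0.43 and 0.35 in knockout replicates 1, 2 and 3, and 0.09, -0.05 and -0.04 in the controls. Knockout replicate 1 is thus the array that stood farthest from the controls and also the one with the most outlier spots and the dimmest signal; the part of these in its members' values was not tested. Without it the median over 32 members was 0.54, against 0.02 over all named genes in the same fit. Without both arrays richest in outlier spots it was 0.57, against -0.02 over all named genes.

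**Figure D2:**
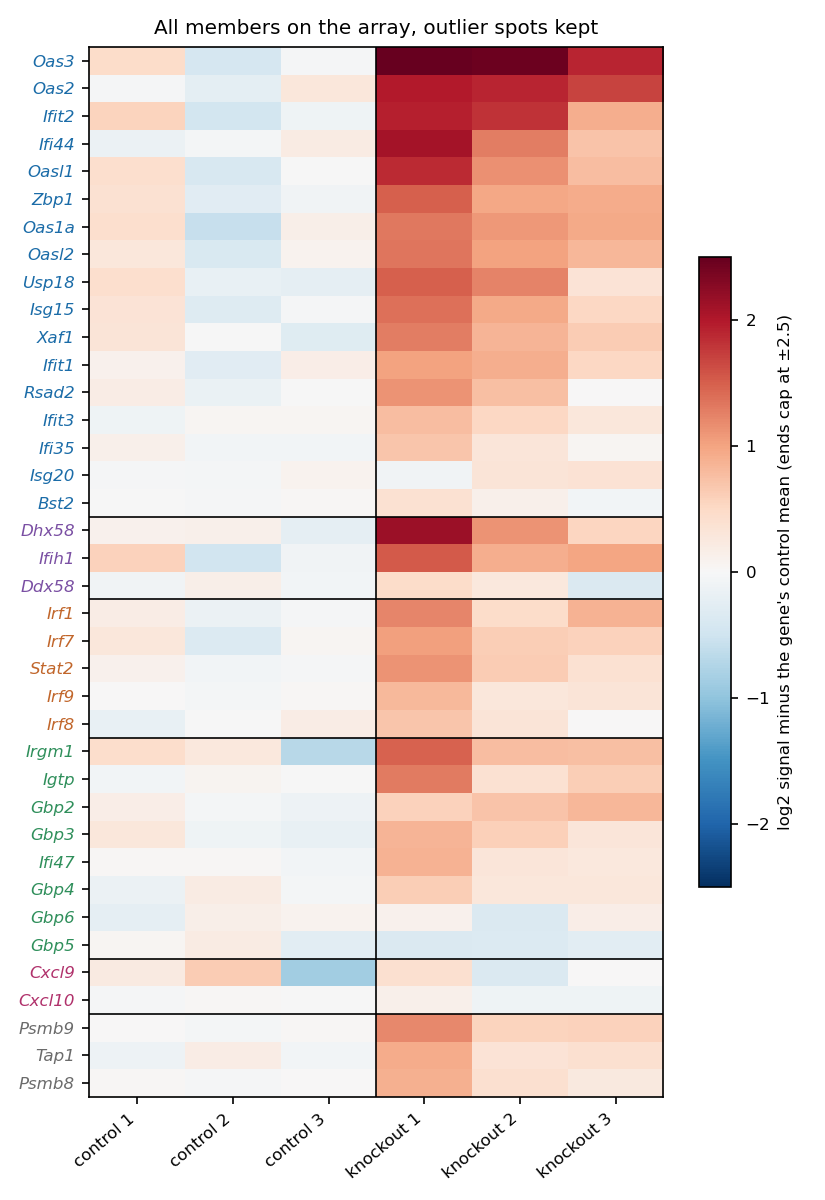
Deviation of each array from the gene's control mean (log2) for the 38 members with a probe, outlier spots kept and each gene shown by its brightest probe on that basis; colours saturate at 2.5 in either direction. Knockout replicate 1 is the highest array for 33 of 38 members. Irf9, Irgm1, Tap1 and Xaf1 are shown by a brighter probe than the one tested.

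Of the members' promoters 6 are shown, from antiviral effectors and GTPases. Isg15, Ifit1 and Rsad2 are antiviral genes, Oas3 had the largest difference of all members, Irgm1 is a GTPase whose ISRE lies next to its start, and Gbp5 was the 1 member that was lower. Each is the 150 bases before the RefSeq start on GRCm38.p6, written 5′ to 3′ on the gene's strand. Capitals mark a match to the ISRE core GAAANNGAAA on either strand in the first 5, and to the GAS core TTCNNNGAA, which reads the same on both strands, in Gbp5.
Isg15 (chr4:156200819-156200968, minus strand): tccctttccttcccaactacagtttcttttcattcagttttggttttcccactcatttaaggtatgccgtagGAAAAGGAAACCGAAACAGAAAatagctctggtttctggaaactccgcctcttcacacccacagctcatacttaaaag
Ifit1 (chr19:34640739-34640888, plus strand): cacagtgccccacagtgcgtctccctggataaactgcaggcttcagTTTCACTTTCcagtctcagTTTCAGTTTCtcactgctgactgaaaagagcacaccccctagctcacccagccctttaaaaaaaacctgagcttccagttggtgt
Rsad2 (chr12:26456453-26456602, minus strand): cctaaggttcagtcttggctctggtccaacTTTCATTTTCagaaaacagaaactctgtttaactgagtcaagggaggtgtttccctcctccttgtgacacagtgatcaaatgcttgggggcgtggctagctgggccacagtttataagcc
Oas3 (chr5:120777660-120777809, minus strand): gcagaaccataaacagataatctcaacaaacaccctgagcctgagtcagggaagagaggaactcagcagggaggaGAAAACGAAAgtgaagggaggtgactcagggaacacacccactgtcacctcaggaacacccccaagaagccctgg
Irgm1 (chr11:48871421-48871570, minus strand): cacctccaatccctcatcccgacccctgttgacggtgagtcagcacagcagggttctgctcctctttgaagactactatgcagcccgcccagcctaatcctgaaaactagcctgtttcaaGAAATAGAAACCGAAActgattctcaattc
Gbp5 (chr3:142496784-142496933, plus strand): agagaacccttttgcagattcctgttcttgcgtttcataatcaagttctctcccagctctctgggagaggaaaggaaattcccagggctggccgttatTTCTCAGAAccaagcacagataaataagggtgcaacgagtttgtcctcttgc

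Isg15 holds 3 overlapping matches that run together into 1 tract, its first base 78 bases before the start, and Ifit1 holds 2 separate ones, at 104 and 85 bases. The matches of Irgm1 overlap as well, at 30 and 24 bases before its start, while Oas3 has 1 at 75 and Rsad2 1 at 120. Gbp5 also has an ISRE core match at 165 bases, outside the stretch printed.

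Over windows from 250 bases before to 50 after the start, an ISRE core match was present in 16 of the 32 members with a window (50%) and in 1079 of 27025 genes (3.99%). A GAS match was present in 10 of 32 members (31.2%) and in 2582 genes (9.55%), and Bst2, Gbp5, Igtp and Oas1a held both. Among tested members the median difference was 0.63 for the 13 tested members with an ISRE core match and 0.51 for the 15 without, and 0.41 for the 10 with a GAS match and 0.68 for the 18 without. A match is a description of these letters, and no match says only that they are not in this window. No window was given for Dhx58, Gbp4, Gbp6, Mx1, Mx2, Oas1b, Oas2, Usp18 or Zbp1.

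**Figure D3:**
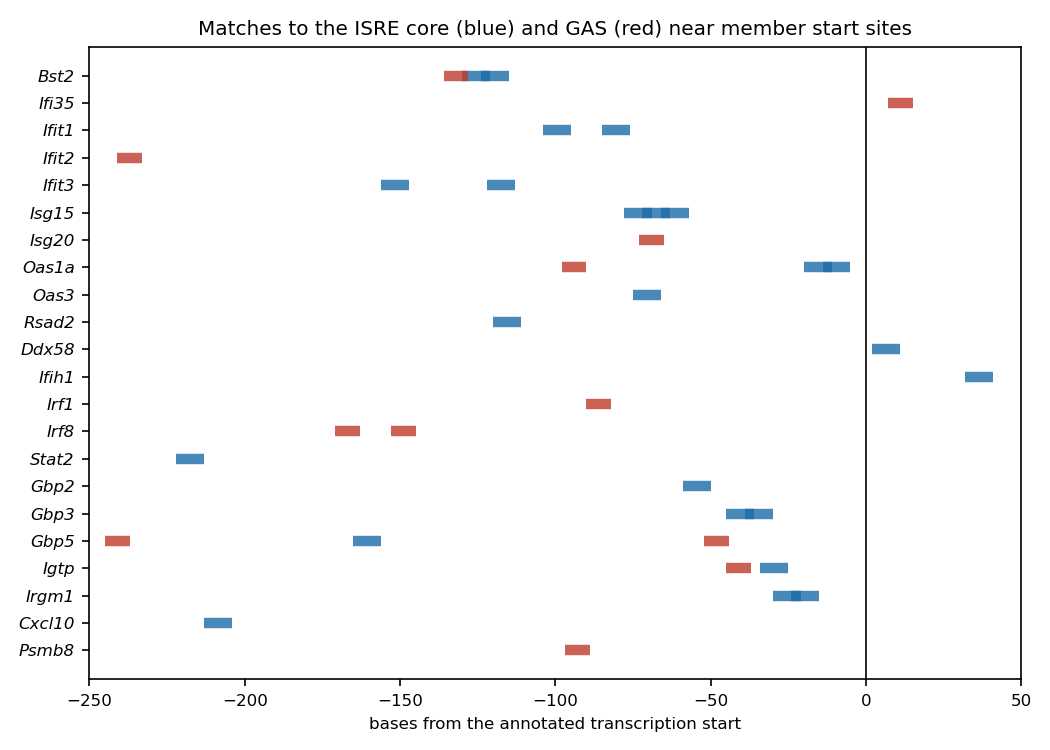
Distance from the RefSeq start (bases, negative before the start) of every ISRE core (blue) and GAS (red) match in the members' 300-base windows, 1 line per gene. Most ISRE core matches lie before the start; those of Ddx58 and Ifih1 lie after it.

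The antiviral effectors made up the largest group, with 15 members tested, all higher in the knockout, at a median of 0.94. The 2′-5′ oligoadenylate synthetases, which sense double-stranded RNA and make the messenger that activates RNase L, held the largest differences. Oas2 was at -1.71, -1.92 and -1.39 in control replicates 1, 2 and 3 and at 0.30, 0.24 and 0.01 in knockout replicates 1, 2 and 3. Every knockout was above every control, and the gap between the groups was wider than the spread within either. Oas2 rose by 1.86 (SE 0.19, adjusted p = 0.0171 in limma), a 3.62-fold higher signal.

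The second Oas2 probe was well above background on all 3 knockout arrays and on no control array, and its signal was at least 2.77-fold higher in knockouts when the controls are set to the lowest signal well above background (adjusted p = 0.0169 in limma; measured means of -6.69 and -4.33). The second probe met the background rule only through the knockouts, where it was high, so its p-value is no separate support for Oas2. Its difference of 2.36 was 1.38 with normexp background correction and 1.24 with normexp and quantile normalization. Both probes stayed called in 4 of 6 fits with an array left out. The brighter missed the threshold without control replicate 2 (1.73, adjusted p = 0.0572) and without knockout replicate 3 (1.94, adjusted p = 0.0550). The dimmer missed it without control replicate 2 (2.31, adjusted p = 0.0569) and without control replicate 3 (2.40, adjusted p = 0.0545).

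Oas3, a long synthetase of the same family, was dim, at -3.45, -4.31 and -3.93 in controls and at -1.45 and -1.98 in knockout replicates 2 and 3, with the spot of knockout replicate 1 an outlier. Oas3 rose by 2.18 (SE 0.32, adjusted p = 0.0364 in limma), or 4.52-fold, the largest difference of any member. With the outlier spot kept, knockout replicate 1 was at -0.46, the highest of all. The call was lost without control replicate 2 (1.97, adjusted p = 0.0914), control replicate 3 (2.16, 0.0994) or knockout replicate 1 (2.18, 0.0567).

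Oas1a, the third synthetase, was at 2.0, 1.01 and 1.74 in controls and 2.91, 2.66 and 2.53 in knockouts. Its difference of 1.12 (SE 0.28) did not pass (adjusted p = 0.0696 in limma), although the groups did not overlap. Near-identical Oas1 copies lie beside it, so its probe may also read their transcripts and the value is uncertain in that respect.

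The synthetase-like genes followed the same order of groups without passing. Oasl1, which restrains translation of Irf7, differed by 1.26 (adjusted p = 0.0776 in limma). Oasl2, which carries ubiquitin-like domains and synthetase activity, could not be tested, because all 3 of its knockout spots and 1 control spot were outliers. With those spots kept it was at 1.66, 1.01 and 1.47 in controls and at 2.72, 2.38 and 2.21 in knockouts, with no overlap.

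Rsad2 encodes viperin, which makes a chain-terminating nucleotide. Its dimmer probe was at -3.94, -4.35 and -4.15 in controls and -2.38, -2.57 and -3.32 in knockouts, and by that probe Rsad2 rose by 1.39 (SE 0.28, adjusted p = 0.0474 in limma). Its brighter probe was at 1.48, 1.13 and 1.30 in controls and 2.43, 2.05 and 1.32 in knockouts; there knockout replicate 3 fell among the controls, and the difference of 0.63 did not pass (adjusted p = 0.225). The call at the dimmer probe was lost whichever of the 6 arrays was left out, with differences of 1.20 (without knockout replicate 1) to 1.67 (without knockout replicate 3) and adjusted p of 0.0525 (without control replicate 1) to 0.139 (without control replicate 2). It was also lost with quantile normalization (1.41, adjusted p = 0.0560), with normexp before it (1.13, 0.0583), and without both arrays richest in outlier spots (1.30, 0.0795).

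Zbp1, a sensor of Z-form nucleic acid that triggers cell death, was called at the dimmer of its 2 probes. The values there were 1.23, 0.76 and 1.03 in controls and 2.72, 2.27 and 2.08 in knockouts, with the groups well apart. Zbp1 rose by 1.35 (SE 0.22, adjusted p = 0.0368 in limma), and its other probe differed by 0.94 (adjusted p = 0.0840). The call held only without control replicate 1 (1.46, 0.0396); without another array, differences were 1.17 to 1.49 and adjusted p reached 0.110, without control replicate 2.

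**Figure D4:**
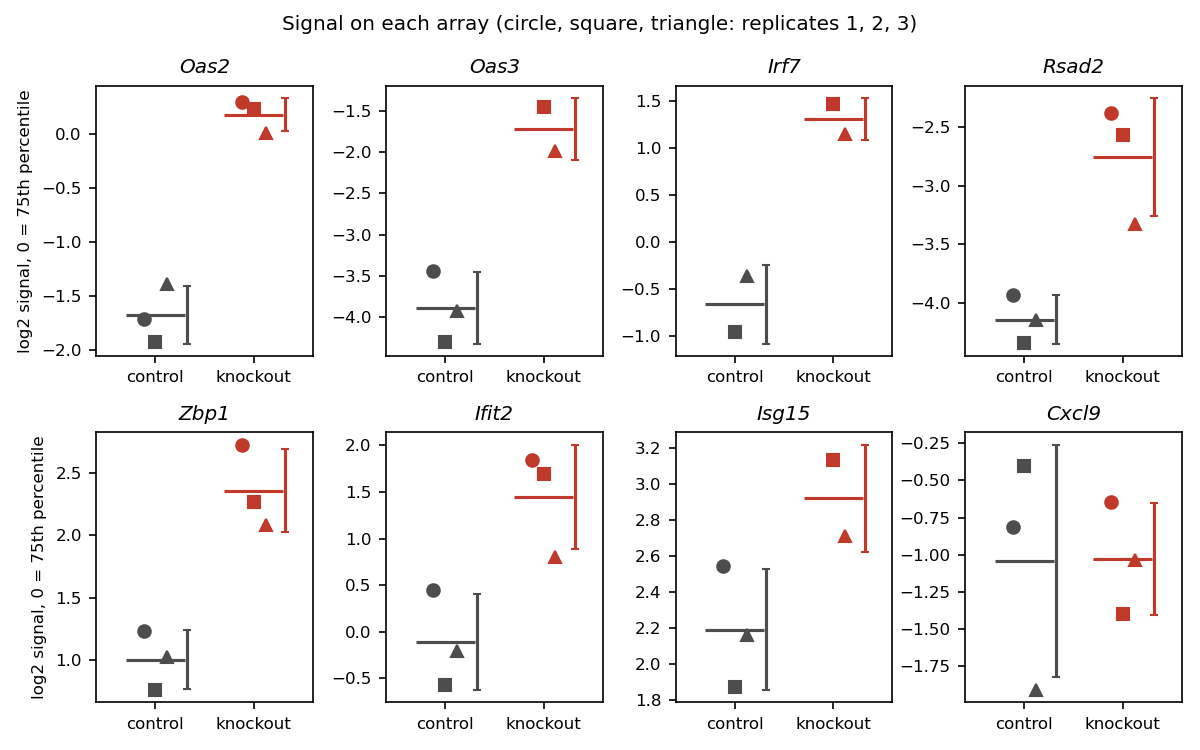
Log2 signal above or below the 75th percentile of each array for selected members, 1 symbol per mouse (circle, square and triangle for replicates 1, 2 and 3), with the group mean as a line and its SD as a bar; a missing point is an outlier spot. The panels of Irf7, Rsad2 and Zbp1 plot their called, dimmer probes, on which the groups do not overlap.

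The Ifit genes encode proteins that bind foreign RNA ends. Ifit2 was at 0.45, -0.57 and -0.21 in controls and at 1.84, 1.69 and 0.81 in knockouts, a difference of 1.56 (SE 0.37, adjusted p = 0.0633 in limma) with no overlap. Ifit1 had 2 usable values per group, 1.54 and 2.0 against 2.74 and 2.35, a difference of 0.77 (adjusted p = 0.168). Ifit3 could not be tested; with outlier spots kept it was at 1.43, 1.58 and 1.57 in controls and 2.31, 2.04 and 1.81 in knockouts. A near-identical copy of Ifit3 in the mouse genome makes its source uncertain.

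Isg15, a ubiquitin-like modifier, was bright in every mouse, at 2.54, 1.87 and 2.16 in controls and 3.13 and 2.71 in knockout replicates 2 and 3. The difference was 0.73 (SE 0.27, adjusted p = 0.158 in limma), and the lower knockout was close above the highest control. Usp18, the protease that removes ISG15 and also dampens the type I receptor, was at 0.59, -0.02 and -0.06 in controls and 1.67, 1.41 and 0.51 in knockouts. Here knockout replicate 3 lay below control replicate 1, and the difference of 1.03 did not pass (adjusted p = 0.118).

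Ifi44 differed by 1.40 (adjusted p = 0.105 in limma, 2 usable knockouts), with 3.07 in knockout replicate 1 and 1.72 in knockout replicate 3 against 0.84 to 1.19 in controls. Ifi35 (0.35), the exonuclease gene Isg20 (0.20) and Bst2 (0.14) had the smallest differences among bright antiviral genes, and in all 3 the groups overlapped. Bst2 encodes tetherin, which holds budding virus at the cell surface. It was at 2.25, 2.23 and 2.29 in controls and 2.63, 2.38 and 2.19 in knockouts, with a 95% interval of -0.25 to 0.54. Its sign turned under quantile normalization, to -0.02, and to -0.06 when normexp background correction came first.

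Xaf1, a pro-apoptotic gene, had probes that gave different values. Its tested probe was dim, with a control mean of -4.21 ± 0.33 and a knockout mean of -4.12 ± 0.56 (SD, n = 3 per group), a difference of 0.09 that was negative without knockout replicate 1 (-0.23), without control replicate 3 (-0.01), without both arrays richest in outlier spots (-0.32) and with array weights (-0.35). Its bright probe could not be tested, because 5 of its 6 spots were outliers. Kept, those spots read 1.69, 1.34 and 1.04 in controls and 2.64, 2.21 and 1.99 in knockouts, 0.92 higher with no overlap.

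Among the 3 RNA sensors, which recognise viral RNA in the cytoplasm, the median was 1.23 and none was called. Ifih1, which encodes MDA5, had 0.59 and 0.97 in controls and 1.98 and 2.05 in knockouts, a difference of 1.23 (SE 0.23, adjusted p = 0.0609 in limma) over 2 usable arrays per group. Dhx58, which encodes LGP2, a regulator of the other two, was at -0.04, -0.02 and -0.37 in controls and 2.0, 0.97 and 0.40 in knockouts, 1.27 higher with no overlap (adjusted p = 0.105). The knockouts of Dhx58 were spread more widely than the controls.

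Ddx58, which encodes RIG-I, had the smallest difference of the sensors. It was at 0.76, 0.98 and 0.77 in controls and 1.30, 1.1 and 0.47 in knockouts, so knockout replicate 3 was the lowest array of all. The difference of 0.12 had a 95% interval of -0.46 to 0.69, and its 3 other tested probes differed by -0.10, -0.05 and -0.003. Ddx58 was the only one of 10 members with several tested probes whose probes had opposite signs. Its brightest probe turned negative without knockout replicate 1 (-0.05), without both arrays richest in outlier spots (-0.09) and with array weights (-0.13).

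The 5 transcription factors tested were all higher, at a median of 0.62, and 4 of them had groups that did not overlap. Irf7, the factor that drives most interferon alpha genes, was called at its dimmer probe only. That probe had 2 usable values per group, -0.96 and -0.37 in controls and 1.46 and 1.14 in knockouts, and by it Irf7 rose by 1.97 (SE 0.29, adjusted p = 0.0455 in limma). With the outlier spots kept, control replicate 1 read 0.50 and knockout replicate 1 read 1.97, the difference was 1.80 and the adjusted p 0.0534. The brighter probe was at 2.52, 1.89 and 2.28 in controls and 3.26, 2.84 and 2.81 in knockouts, 0.74 higher (adjusted p = 0.0977). Without knockout replicate 1 the adjusted p of the called probe was 0.0690, with the same 1.97. That fit removed none of the probe's usable values. Without any array that held a usable value of it, the probe could not be tested.

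Irf1, an early factor downstream of interferon gamma, was at 1.41, 1.09 and 1.19 in controls and 2.46, 1.68 and 2.10 in knockouts, 0.85 higher (SE 0.23, adjusted p = 0.0803 in limma). Irf9 and Stat2, the DNA-binding and transactivating partners in the ISRE complex, differed by 0.62 (adjusted p = 0.113) and 0.51 (adjusted p = 0.150). Stat2 was at 1.27, 1.08 and 1.12 in controls and at 1.79 and 1.54 in knockout replicates 2 and 3, with no overlap. Irf8, which is needed by dendritic cells and monocytes, overlapped between groups (0.16, 95% interval -0.35 to 0.68).

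In the group of interferon-inducible GTPases, which attack vacuoles of intracellular pathogens and are driven strongly by interferon gamma, 5 of 6 tested members were higher, and the median was 0.43. No member was called. Gbp2 was at 1.54 and 1.45 in controls and 2.29 and 2.41 in knockouts, 0.86 higher (SE 0.20, adjusted p = 0.0827 in limma, 2 usable arrays per group). Igtp was at 1.43 and 1.36 against 1.74 and 1.97 (0.46, adjusted p = 0.243), and Irgm1, Gbp4 and Ifi47 differed by 0.62, 0.39 and 0.30 with no overlap.

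Gbp5, which promotes inflammasome assembly, was the exception. It was at -0.19, -0.04 and -0.50 in controls and -0.60, -0.57 and -0.50 in knockouts, so its groups met at -0.50 without crossing. The difference was -0.32 (SE 0.17, adjusted p = 0.283 in limma, 95% interval -0.72 to 0.09). Gbp3 and Gbp6 could not be tested. With outlier spots kept Gbp3 was at 1.24, 0.85 and 0.76 in controls and 1.81, 1.54 and 1.25 in knockouts, and Gbp6 at -0.45, -0.07 and -0.14 in controls and -0.11, -0.58 and -0.06 in knockouts. Gbp3 had no overlap, and Gbp6 had knockouts on both sides of the controls. Gbp genes are close paralogues, and their probes may read each other's transcripts.

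The chemokines that draw CXCR3-bearing T cells had overlapping groups. Cxcl9 was at -0.81, -0.40 and -1.91 in controls and -0.64, -1.40 and -1.04 in knockouts, with full overlap. Its difference was 0.01 (SE 0.41, adjusted p = 0.986 in limma), with a 95% interval of -0.96 to 0.99. Differences across that interval are compatible with these values, so Cxcl9 is not shown to be unchanged. Its sign changed with single arrays, from -0.42 without control replicate 3 to 0.33. Cxcl10 had no usable knockout value; with outlier spots kept it was at 1.13, 1.17 and 1.15 in controls and 1.28, 1.04 and 1.05 in knockouts, a difference of -0.03.

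Genes of antigen processing were higher without being called. Psmb9, a catalytic subunit of the immunoproteasome, was at 1.81, 1.75 and 1.82 in controls and 2.99, 2.36 and 2.37 in knockouts, 0.78 higher (SE 0.21, adjusted p = 0.0796 in limma). Its partner subunit Psmb8 was at 2.13, 2.06 and 2.10 against 2.99, 2.5 and 2.34 (0.51, adjusted p = 0.166). The controls of both subunits lay close together, and every knockout was above them. Tap1, the peptide transporter, was at -0.61, -0.73 and -1.23 in controls and -0.31 and -0.79 in knockout replicates 2 and 3 (0.31, adjusted p = 0.511), with overlap.

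For 10 members several probes were tested, and their sizes of difference did not always match. In Oas2, Oasl1, Rsad2, Irf1, Irf7 and Zbp1 a dimmer probe had the larger difference, and in Isg20, Stat2, Ifi35 and Ddx58 the brightest had. Of the 45 tested member probes 41 were higher and 4 lower. With outlier spots kept, all 38 members had values: 35 were higher and 3 (Gbp5, Gbp6 and Cxcl10) lower. Of them 27 were apart and higher, 1 was apart and lower, and the median was 0.73. On the same basis 3479 of 17865 named genes were apart and higher and 3363 apart and lower, with a median of 0.03.

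Other genes of the pathway had a smaller median difference than the members. The comparison lists hold 96 other genes, of which 72 were tested: 51 were higher and 21 lower, and the median was 0.30. By their brightest probe 3 were called, all higher, against 222 of 16451 named genes called and higher. Of 18 listed interferon genes 9 were tested, at a median of 0.17, and all 9 were below the 75th percentile on every array. Ifnb1 was at -5.02, -4.51 and -4.44 in controls and -5.46, -4.90 and -4.88 in knockouts (-0.42, adjusted p = 0.309 in limma), Ifng differed by 0.39 (adjusted p = 0.439), and Ifnl3 by 0.37 (adjusted p = 0.389), each with overlapping groups. Ifnl2 had no named probe, and Ifna4, Ifna13 and Ifne were not well above background on any array. In 2 of the 9 every knockout was above every control, a share close to the 20.3% of all named genes. One was Ifnab, a type I interferon gene, at -4.10, -3.61 and -3.48 in controls and -3.27, -3.05 and -2.59 in knockouts (0.76, adjusted p = 0.116). The other was Ifnk, an interferon best known from keratinocytes, at -4.95, -5.64 and -5.19 in controls and -4.29, -3.96 and -4.01 in knockouts. Ifnk rose by 1.18 (SE 0.22, adjusted p = 0.0441), a call that held only without control replicate 1 (1.33, 0.0386) among the fits with an array left out and had an adjusted p of up to 0.115 in the others. The call was also lost with normexp background correction (0.66, adjusted p = 0.0540), with normexp and quantile normalization (0.52, adjusted p = 0.0907), and with no filter on dim probes (adjusted p = 0.0668).

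Receptors and JAK-STAT genes had a median of 0.29 over 10 tested genes, and none was called. Of the type I receptor subunits, Ifnar1 differed by -0.28 (adjusted p = 0.359 in limma) with overlap. A brighter Ifnar1 probe, untested because of outlier spots, read 2.59 in its 1 usable control and 2.91 and 2.85 in knockout replicates 2 and 3, the opposite order. Ifnar2 differed by -0.96 (adjusted p = 0.0573) without overlap; Ifnar2 was chosen for mention after its values were seen. Ifngr1, of the interferon gamma receptor, differed by 0.46 (adjusted p = 0.183) with no overlap.

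Nucleic acid sensing and relay genes had a median of 0.13 over 13 tested, and negative regulators -0.02 over 9. Trim25, the ubiquitin ligase that acts on RIG-I, rose by 1.21 at its dimmer probe (adjusted p = 0.0447 in limma) and differed by 0.75 at its brighter (adjusted p = 0.0613). The 31 tested genes of the list of other interferon-inducible genes had a median of 0.37. In that list Epsti1, which is induced by interferon in epithelium and macrophages, was at -0.84, -0.68 and -0.72 in controls and 0.74, 0.49 and 0.20 in knockouts. Epsti1 rose by 1.22 (SE 0.18, adjusted p = 0.0314). Ido1, which degrades tryptophan, was at -1.02 and 0.26 in controls and 2.24, 2.39 and 1.90 in knockouts, and Ido1 rose by 2.56 (SE 0.41, adjusted p = 0.0413). The calls of Epsti1, Ido1 and Trim25 each held without control replicate 1. Each was lost without any other array whose removal left enough values, with adjusted p of up to 0.0924, 0.0972 and 0.116. With the outlier spot of control replicate 1 kept, the difference of Ido1 was 1.63 and its adjusted p 0.234. The calls of Ido1 and Trim25 were also lost with no filter on dim probes (adjusted p = 0.0657 and 0.0682), and those of all 3 genes without both arrays richest in outlier spots (adjusted p = 0.0522 to 0.0784).

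**Figure D5:**
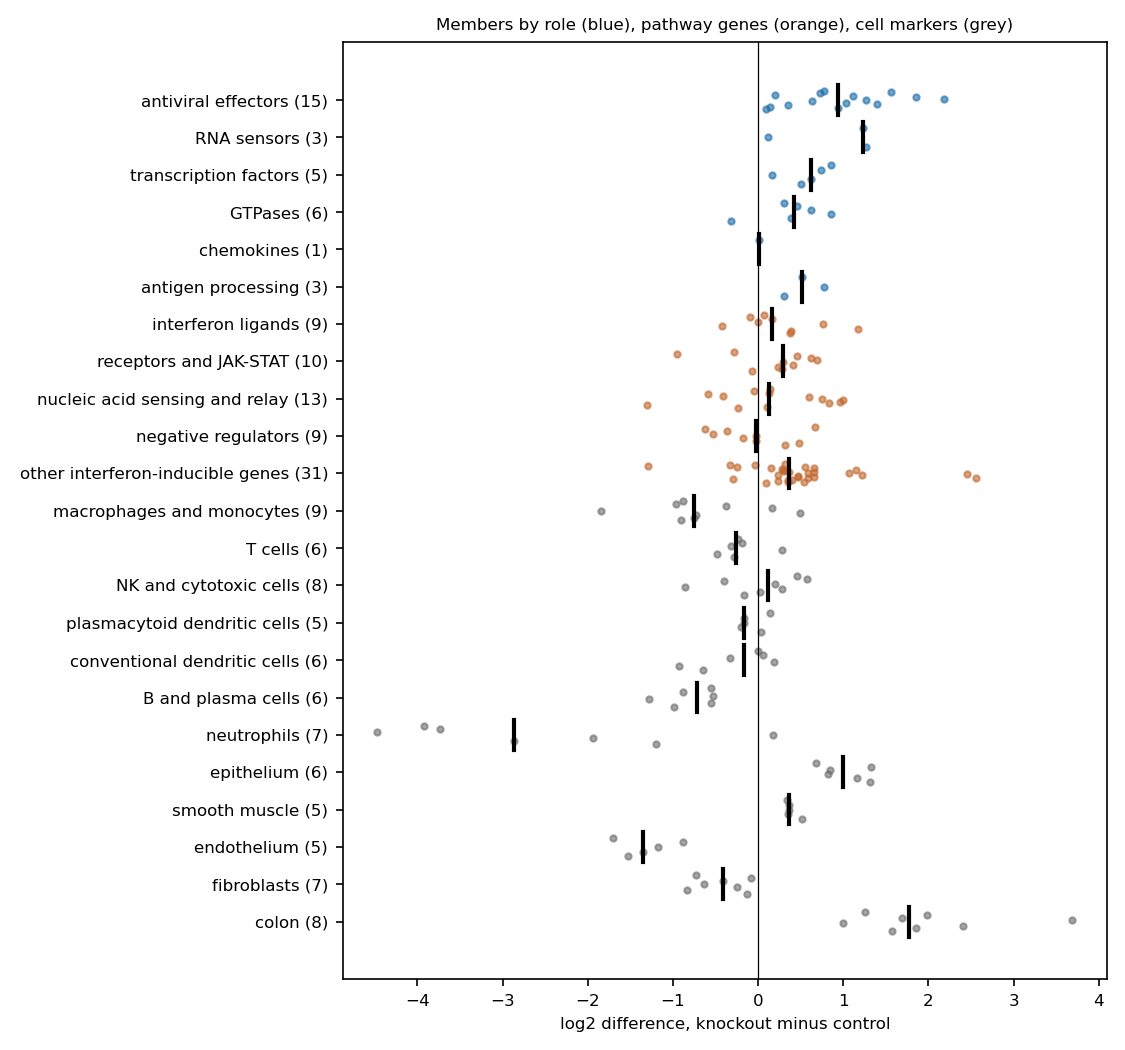
Median knockout minus control difference (log2) of tested genes by role of the members (blue), by pathway list (orange) and by cell marker list (grey), with the single genes as points and the number of genes tested in brackets. All tested epithelial and colon markers lie above 0 and all endothelial markers below it, as do 6 of the 7 neutrophil markers.

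Markers of several cell types differed in level between the genotypes, and their part in the members' differences was not tested. The 6 tested of 8 listed epithelial genes were all higher (median 1.00, none called). Sums here and below add linear levels relative to the 75th percentile. They cover every listed gene on the array, tested or not, by its brightest probe with outlier spots kept. The epithelial sum, over 8 genes, was 19.4 to 56.1 in controls and 66.8 to 87.3 in knockouts. The 8 colon epithelial genes were all higher too (median 1.77, none called), with sums of 5.34 to 33.3 and 38.6 to 57.1. Control replicate 2 had the lowest level of all 8 colon genes, and it was also the lowest control for 20 of 38 members. Of 7 tested neutrophil genes 6 fell, all 6 of them called, and the median was -2.86. The remaining tested gene differed by 0.17. Listed Ly6g, untested because of outlier spots, was 0.78 higher without overlap when those spots were kept. The list sums were 24.1 to 25.7 in controls and 17.2 to 19.0 in knockouts. Macrophage and monocyte genes had a median of -0.75 with none called (sums 26.0 to 34.7 and 24 to 26.1), and endothelial genes -1.36 with none called (6.75 to 7.91 and 1.48 to 4.05). Plasmacytoid dendritic cell genes, a list that includes the member Bst2, had a median of -0.16 and sums that overlapped, 19.0 to 26.9 against 20.6 to 24. T cell genes had a median of -0.26 and NK and cytotoxic genes 0.11, both with overlapping sums and none called. Fibroblast genes had a median of -0.41, B and plasma cell genes -0.71, conventional dendritic cell genes -0.17 and smooth muscle genes 0.36, again with none called.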

How the data were processed

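Each of the 6 scanner files held 1 array read with Agilent Feature Extraction 11.5.1.1, per the file headers; the submitters' processing notes name version 10.7. The labels name Cy3 and a green signal column, but the files hold the red channel alone, which was used. The deposited processed signal is an intensity on a linear scale, background-subtracted and detrended inside Feature Extraction, per the file headers, with no scaling between arrays. The value table of the series holds the same intensities as deposited (log2 correlation of at least 0.999999 with the scanner signals) and served as an alternative.

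The signal was taken as log2 minus the array's 75th percentile over 59305 spots that were not controls; outlier spots were set missing and spots of a probe averaged. Of 56605 probes, 40172 met the background rule and 35351 were tested, two-sided, in limma 3.58.1 (lmFit, then eBayes; R version 4.3.3) with no term but genotype. The procedure was tested on simulated data in which 200 of 35351 probes were changed. It called 0% of the log2 differences of size 1 and 57% of those of size 2, and 2 of its 59 calls were false. The data themselves had 1403 called probes, so the threshold on p was stricter in the simulation. These shares therefore do not give the detection rate in the data, where differences such as 1.35 (Zbp1) were called. A member that did not pass is still not shown to be unchanged. The number of arrays, 3 in each group, limits the precision, and an exact permutation test of 3 against 3 cannot give a p under 0.1. Probes were named through their RefSeq accession in the annotation of GRCm38.p6 (33767 probes, 59.7%); the array design uses mm9, so no probe coordinates are given.

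The members and all lists were chosen with earlier results of these data known. Described in full were members with a called probe, the 3 largest rises and falls, 16 members of textbook interest, members with probes of opposite sign and those not testable; of the other genes, Islr, the called pathway genes and Ifnar1, Ifngr1, Ifng, Ifnb1, Ifnl2 and Ifnl3; 1 further gene of the rule is not reported here. Alternatives were scaling to the array median, quantile normalization, normexp (offset 50) with either scaling, outlier spots kept, no or a stricter background filter, the value table, array weights, the mean of a gene's probes and leaving out each array; leaving out both arrays richest in outlier spots, and using only probes usable on all 6 arrays, were chosen after seeing the data.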

Additional observations from a re-analysis of the deposited data

How the results depend on the processing

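The members' median difference was 0.54 to 0.76 under every alternative run and never moved by more than the spread between arrays. The count of members called by their brightest probe, 2, became 4 with normexp and quantile normalization, 1 with no filter on dim probes, 16 with array weights, 4 without both arrays richest in outlier spots, and 0 to 6 with an array left out. The count of lower members, 1, became 2 with quantile normalization, normexp, both together, or the mean of a gene's probes, 3 with outlier spots kept, 4 with array weights, 4 without both arrays richest in outlier spots, and 1 to 4 with an array left out. Of all probes 1403 were called, 548 of them higher; the array median gave 2249, quantile normalization 2185, normexp 2558 (1306 higher), normexp and quantile 2769, no filter 484, array weights 9292, and leaving out an array 40 to 2114. Islr was at -2.58 to -2.34 with an array left out, and its adjusted p passed 0.05 only without knockout replicate 3; without control replicate 2 or 3 it could not be tested. The sign turned for Bst2 with quantile normalization (-0.022) and normexp and quantile (-0.057). It turned for Cxcl9 with normexp (-0.0043), array weights (-0.36), without both arrays richest in outlier spots (-0.061), and at -0.42 to 0.33 with an array left out. It turned for Ddx58 with array weights (-0.13), without both arrays (-0.091), and at -0.052 to 0.36 with an array left out, and for Xaf1 at -0.35, -0.32 and -0.23 to 0.29 under the same settings. The cause of these shifts was not tested.

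Bright probes rest on fewer arrays, since outlier spots were commonest there: up to 56.8% of the brightest 10% of spots, on knockout replicate 1. Such genes have 2 values in a group, and 13 of 33 representative probes lacked at least 1 array. No paired analysis was possible because the labels give the arrays no replicate numbers shared between groups.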
